A study of Arabidopsis thaliana and Arabidopsis thaliana x Arabidopsis arenosa with 9 samples.

Results

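The genes described here are 10 class IV homeodomain leucine zipper (HD-ZIP IV) genes of Arabidopsis thaliana, taken by their locus numbers from a count table of 33602 loci. They are HDG3 (AT2G32370), FWA (AT4G25530), HDG8 (AT3G03260), HDG9 (AT5G17320), ATML1 (AT4G21750), PDF2 (AT4G04890), HDG2 (AT1G05230), HDG11 (AT1G73360), HDG12 (AT1G17920) and ANL2 (AT4G00730). The study followed parent-specific expression in early seeds and how hybridization perturbs it. RNA was sequenced from whole seeds at 3 days after pollination from reciprocal crosses of the accessions Col-0 and C24, with 2 libraries per cross, and seeds of many siliques were pooled in each. Crosses are written seed parent first. In the cross ColA9 X C24 the seed parent was ColA9, a male-sterile line of Col-0, and the pollen came from wild-type C24. In the reciprocal, C24A9 X Col-0, the seed parent was C24A9, a male-sterile line of C24, and the pollen came from wild-type Col-0. The seed parents of both crosses were hemizygous for a male sterility construct, which made emasculation unnecessary, so no cross here has a wild-type mother. By the methods of the study, replicate 2 of both crosses was digested with duplex-specific nuclease, which lowers abundant cDNA, and amplified again, and replicate 1 was not. The replicate number therefore also marks a treatment, and each cross holds 1 library of each kind.

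HD-ZIP IV proteins bind DNA through a homeodomain, pair through an adjoining leucine zipper and carry a START domain of the kind that binds lipids. Most genes of the class are active in the outermost cell layer of shoots and embryos, where ATML1 and PDF2 act redundantly to set epidermal identity, and many epidermal genes carry the L1 box that these proteins recognise. A few members are instead known from the endosperm, the triploid tissue that feeds the embryo, as imprinted genes. FWA, HDG8 and HDG9 are known there as maternally expressed and HDG3 as paternally expressed. Allele counts were not analysed here, so every value below is the sum of both parental alleles.

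Since the members are relatives, it was first asked whether their reads could be told apart, and the runs below are shown because they are where reads of close relatives are most alike. Searched as windows of 80 bases in the longest annotated transcripts (TAIR10.1), none of the 10 members shared a window with another gene of the family. The paper's methods name 27 bases as the length limit of trimmed reads from 80-base runs. At 27 bases HDG9, ATML1, PDF2, HDG2, HDG11, HDG12 and ANL2 each shared some windows within the family. The largest such part was 1.05% of the windows of HDG9, shared with HDG10, so the shortest reads there may not be told apart. The longest run of identical bases between a pair of family members was 36 bases, in HDG9 and HDG10, followed by 34 bases in PDF2 and HDG2. Runs of 29 bases were held by HDG11 and HDG12, by ANL2 and HDG1 and by HDG4 and HDG5, and a run of 28 by ATML1 and PDF2. The runs of 4 of these pairs are printed 5′ to 3′ on the transcript strand, with no base in capitals.
HDG9 and HDG10: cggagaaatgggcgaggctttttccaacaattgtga
PDF2 and HDG2: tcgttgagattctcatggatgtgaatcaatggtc
HDG11 and HDG12: ttgataacggttgggtttcagataatggt
ATML1 and PDF2: gtgatctttccgtgataacgagtcctga
HDG2 shared 16.5% of its windows of 80 bases with the antisense long non-coding RNA AT1G04353, and HDG12 shared 6.45% with the antisense AT1G05357. Neither of these RNAs has a row in the count table, and a strand-specific count is not stated, so antisense reads in HDG2 and HDG12 cannot be told apart from their own. FWA (chromosome 4, 13038360 to 13042464, 10 exons) overlaps MSH3 on the other strand by 10 bases.

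The L1 box was then looked for upstream of the family itself, as TAAATGCA or TAAATGTA on either strand within the 300 bases before each annotated start. It was found in 2 of the 10 members, HDG2 and ANL2, against 5.51% of the 27444 protein-coding windows of the same length. These windows are printed 5′ to 3′ on the strand of the gene with the L1 box in capitals. In HDG2 it begins 107 bases before the start and reads TAAATGTA, and in ANL2 it is TAAATGCA on the opposite strand and thus appears as its complement, 56 bases before the start. The window of HDG3 is shown beside them because that gene differed most between libraries, and it holds neither form. A match or its absence in this window is a description of the letters only.
HDG2, chr1:1518901-1519200, minus strand, TAIR10.1: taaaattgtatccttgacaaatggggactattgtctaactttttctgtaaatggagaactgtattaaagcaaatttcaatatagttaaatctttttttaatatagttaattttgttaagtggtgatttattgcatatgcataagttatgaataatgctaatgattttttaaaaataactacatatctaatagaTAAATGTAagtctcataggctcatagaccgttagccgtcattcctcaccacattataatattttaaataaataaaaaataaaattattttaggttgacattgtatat
ANL2, chr4:304613-304912, minus strand, TAIR10.1: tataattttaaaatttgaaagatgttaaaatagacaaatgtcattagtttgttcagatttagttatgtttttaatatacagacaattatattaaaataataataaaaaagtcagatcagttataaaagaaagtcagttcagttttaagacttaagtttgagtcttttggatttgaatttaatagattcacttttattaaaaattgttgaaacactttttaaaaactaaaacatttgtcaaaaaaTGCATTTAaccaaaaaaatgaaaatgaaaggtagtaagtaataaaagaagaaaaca
HDG3, chr2:13740578-13740877, plus strand, TAIR10.1: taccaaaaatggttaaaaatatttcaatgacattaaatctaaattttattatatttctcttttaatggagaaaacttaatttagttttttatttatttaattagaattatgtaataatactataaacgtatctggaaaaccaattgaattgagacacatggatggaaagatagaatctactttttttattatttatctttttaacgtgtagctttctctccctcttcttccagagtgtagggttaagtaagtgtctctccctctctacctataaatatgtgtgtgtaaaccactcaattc

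The 4 libraries held 3538335 to 6498145 counted reads, so that a count of 0 allows up to 0.462 to 0.848 reads per 1000000 counted reads (RPM), counting error only. Replicate 2 of C24A9 X Col-0 stood apart. It had reads on 29250 loci, against 19828 to 20580 in the other 3 libraries, and on 73.4% of the 5276 protein-coding loci that had no read elsewhere. Those loci held 4.17 reads per kilobase in that library, against 0.0697 to 0.185 for the like measure in the others, which for the lengths of the 10 members comes to at most 16.6 reads. As for the tissue, the 8 seed coat markers summed to 3593 to 5153 RPM, the 8 endosperm markers to 82.6 to 167 and the 6 embryo markers to 3.54 to 37.6. The endosperm markers MINI3 and AGL62 and the embryo markers LEC1 and WOX8 had reads in all 4 libraries. The 6 stomatal lineage markers summed to 0.462 and 0.983 RPM in the replicate 1 libraries, 3.96 in replicate 2 of ColA9 X C24, mostly from EPF2, and the most in replicate 2 of C24A9 X Col-0 (66 reads), where alone MUTE and FAMA had reads.

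All 10 members were detected in every library and all passed the filter on low counts. Levels between genes were compared as reads per kilobase of the longest transcript and per 1000000 reads (RPKM), scaled by the trimmed mean of M values (TMM). Averaged over the 4 libraries, ATML1 was highest at 34.6 ± 10.3 RPKM (SD, n = 4), followed by FWA at 18.5 ± 5.82, PDF2 at 17.6 ± 4.61 and HDG3 at 17.5 ± 19.2. HDG2 had 14.8 ± 6.34 RPKM, ANL2 11.0 ± 4.29, HDG8 7.18 ± 4.13 and HDG9 6.84 ± 4.49. HDG11 at 1.62 ± 1.38 RPKM and HDG12 at 0.868 ± 0.728 closed the order. The ranges of all neighbours in it overlapped. The SD of HDG3 exceeded its mean, because its place changed from library to library: by RPKM it stood 8th of the 10 in both replicate 1 libraries, 1st in replicate 2 of ColA9 X C24 and 2nd in replicate 2 of C24A9 X Col-0.

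**Figure D1:**
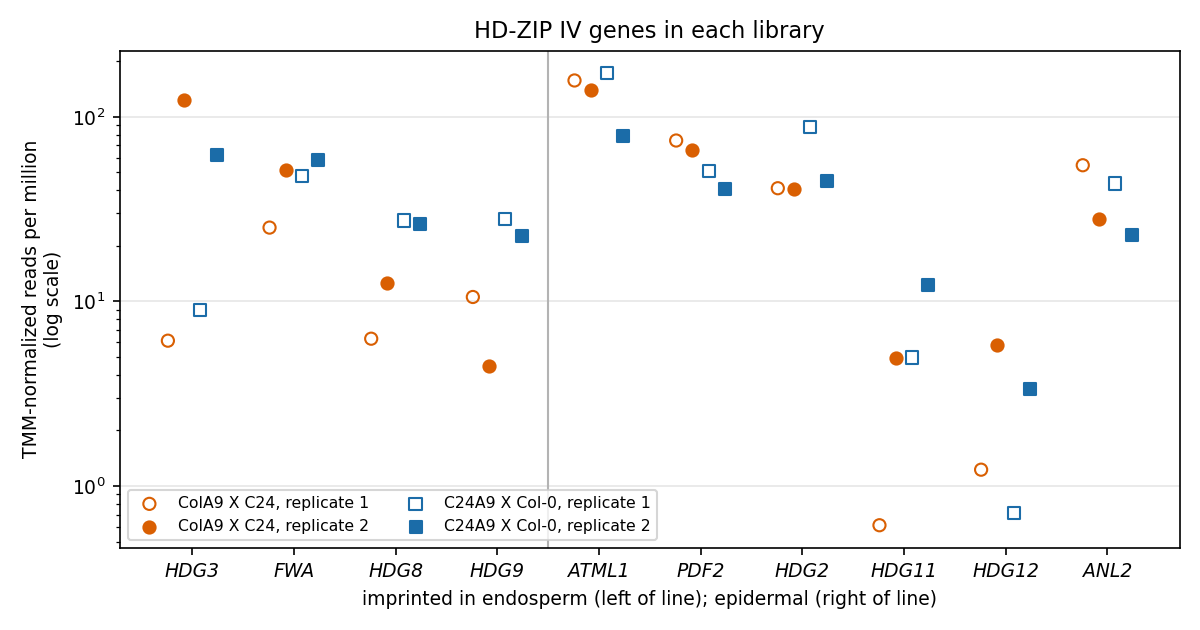
TMM-normalized reads per 1000000 (CPM, log scale) of the 10 genes in each of the 4 libraries, 1 point per library, with the imprinted genes left of the line and the epidermal genes right of it. HDG3 runs from 6.13 and 9.00 in the replicate 1 libraries (open symbols) to 123 and 62.0 in the replicate 2 libraries (filled), while HDG8 and HDG9 are higher in both C24A9 X Col-0 libraries (squares).

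HDG3, a paternally expressed gene that promotes cellularization of the endosperm, differed more than any other member between the replicate numbers. In ColA9 X C24 it had 40 reads in replicate 1 and 550 in replicate 2, and in C24A9 X Col-0 it had 38 and 390. In TMM-normalized reads per 1000000 (CPM) these are 6.13 and 123 in ColA9 X C24 and 9.00 and 62.0 in C24A9 X Col-0. Both replicate 2 libraries lay far above both replicate 1 libraries, in either cross. The rise was 20.1-fold in ColA9 X C24 and 6.89-fold in C24A9 X Col-0. Fitted over both crosses, HDG3 rose by 3.58 ± 0.40 on the log2 scale (estimate ± SE) from replicate 1 to replicate 2, with an adjusted p of 0.000441 in edgeR's quasi-likelihood test (Benjamini-Hochberg over 16779 genes, cross as a term). Without the cross as a term the adjusted p in edgeR was 0.288. HDG3 was the only 1 of the 10 members called between the replicate numbers, where 9.91% of all tested genes were called, 3.23% as higher and 6.68% as lower in replicate 2. In the plain change of log2(CPM + 1) it ranked 25th of 16779 genes in ColA9 X C24 and 190th in C24A9 X Col-0. The p-value rests on how far the change from replicate 1 to replicate 2 differed between the crosses. It has 1 residual degree of freedom, with dispersion shared across genes, and does not measure the spread between seed pools of like treatment. A treatment with 1 library per cross cannot be told apart from any other difference between the replicates.

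Of the reads that C24A9 X Col-0 replicate 2 carried on otherwise silent loci, about 11.9 would be expected on a transcript of the length of HDG3, against the 390 counted. The gene lies on chromosome 2 at 13740878 to 13746286 (TAIR10.1), with 12 exons and a transcript of 2863 bases, none of which formed a shared window of 80 bases. The count table also holds a column marked N beside the name of each replicate 1. What the mark stands for is not stated in the sources used here, and the treatment of these runs is unknown. In RPM the median gene stood at 1.61 and 2.14 times its unmarked run in ColA9 X C24 and the reciprocal, while the abundant LTP1 stood at 0.150 and 0.148 times. In these runs HDG3 had 19 reads in ColA9 X C24 and 49 in C24A9 X Col-0. In RPM that is 4.90 (95% Wilson interval 3.14 to 7.66) and 14.4 (10.9 to 19.1), against 155 (143 to 169) and 70.6 (64.0 to 78.0) in the replicate 2 libraries. The runs marked N thus stood nearer to replicate 1 than to replicate 2 for this gene, and HDG3 was again 8th of the 10 members in both. In C24A9 X Col-0 the run marked N still lay above replicate 1, which had 6.23 RPM (4.54 to 8.55). In RPM, HDG3 in a run marked N was 0.796 times its unmarked run in ColA9 X C24 and 2.32 times in C24A9 X Col-0.

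Some markers of embryo and endosperm differed between the same libraries as HDG3, and since whole seeds were sampled, fewer cells of a type and less RNA per cell cannot be told apart. Of the 6 embryo markers 3 were tested and 1 passed, LEC1, a regulator of embryo identity. LEC1 had 8 and 68 reads in replicates 1 and 2 of ColA9 X C24 and 13 and 89 in C24A9 X Col-0. WOX8, active in the basal embryo lineage, had 9 and 53 reads and 3 and 18, with an adjusted p of 0.0574 in edgeR. DRN and DRNL, also embryo genes, were at 0 outside replicate 2 of C24A9 X Col-0. The median log2 change of the 3 tested genes was 2.66, against 0.07 over all genes. Summed over the embryo list, the level was 3.54 and 3.61 RPM in the replicate 1 libraries and 37.6 and 28.6 in the replicate 2 libraries. Reads as on silent loci, 4.17 per kilobase in replicate 2 of C24A9 X Col-0, were not taken off its 158 embryo-list reads.

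The endosperm markers did not move as 1 group. FIS2, a Polycomb subunit of the central cell and endosperm, had 28 and 104 reads in ColA9 X C24 and 26 and 126 in C24A9 X Col-0 and rose between the replicate numbers (log2 2.08 ± 0.40, adjusted p = 0.00603 in edgeR). ZOU, the endosperm regulator of its own breakdown and of embryo cuticle formation, had 15 and 48 reads and 18 and 71, and rose too (log2 1.81 ± 0.52, adjusted p = 0.0427 in edgeR). The sucrose transporter SUC5 fell by 1.27 (SE 0.32, adjusted p = 0.0279 in edgeR). The other 3 tested markers of this list did not pass, and the median log2 change of the 6 tested was 0.26. The list summed to 82.6 and 167 RPM in the replicate 1 libraries and 105 and 152 in the replicate 2 libraries. These sums are without TMM scaling, unlike the log2 changes, and the size of their differences depends on it. Whether the makeup of the seed pools or the nuclease had a part in the values of HDG3 was not tested.

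**Figure D2:**
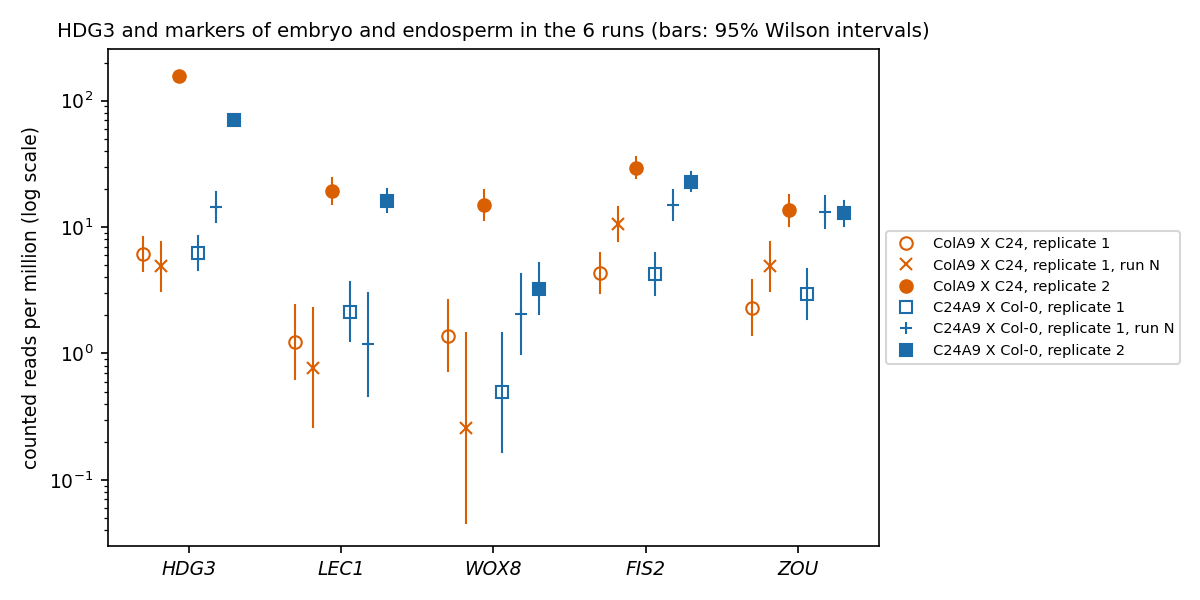
Counted reads per 1000000 (log scale) of HDG3, the embryo markers LEC1 and WOX8 and the endosperm markers FIS2 and ZOU in the 4 libraries and in the 2 runs marked N, with 95% Wilson intervals that cover counting error only. In the runs marked N, HDG3 (4.90 and 14.4) and LEC1 lie well below the replicate 2 libraries. FIS2 and ZOU lie above replicate 1 in both crosses, as does the median of all compared genes, at 1.61 and 2.14 times.

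By a rule of likeness across the 4 libraries, the smallest Euclidean distance between centred values of log2(CPM + 1), the genes nearest to HDG3 were 3xHMG-box1 (AT4G11080, distance 0.246), AT1G43667 (0.431), AT1G13607 (0.517), AT5G63250 (0.547) and AT2G34890 (0.738). 3xHMG-box1, which codes for a protein that binds chromosomes during mitosis, had 6 and 120 reads in ColA9 X C24 and 6 and 104 in C24A9 X Col-0. All 5 were chosen for their likeness over these same libraries, and nothing is read from their number.

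HDG8 and HDG9, known as maternally expressed in the endosperm, were higher when C24 was the seed parent. HDG8 had 6.28 and 12.5 CPM in replicates 1 and 2 of ColA9 X C24 and 27.5 and 26.4 in C24A9 X Col-0. HDG9 had 10.6 and 4.48 CPM in ColA9 X C24 and 27.9 and 22.6 in C24A9 X Col-0. For both genes the libraries of the 2 crosses did not overlap. Such a separation was not rare, since both libraries of C24A9 X Col-0 lay above both of ColA9 X C24 in CPM for 16.7% of all 16779 tested genes. The means were 9.41 ± 4.42 and 26.9 ± 0.76 CPM for HDG8 and 7.52 ± 4.31 and 25.3 ± 3.79 CPM for HDG9 (SD, n = 2 per cross).

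In the fit without the replicate number, neither gene was called between the crosses, with log2 differences (ColA9 X C24 over C24A9 X Col-0) of -1.54 ± 0.46 and -1.74 ± 0.51 and adjusted p of 0.515 and 0.514 in edgeR. That fit called 0.0% of all 16779 genes, with 7.46% at an unadjusted p under 0.05, HDG8 and HDG9 among them. With the replicate number as a block, HDG8 was lower in ColA9 X C24 by log2 -1.60 ± 0.37 (adjusted p = 0.0228 in edgeR) and HDG9 by log2 -1.83 ± 0.39 (adjusted p = 0.0128 in edgeR). These were 2 of the 10 members, where the block fit called 6.66% of all genes, 2.24% as higher and 4.42% as lower in ColA9 X C24. DESeq2's Wald test without the block called neither, with adjusted p of 0.289 and 0.228, and 1.8% of all genes. With 2 libraries against 2, an exact two-sided test of a single value cannot give a p under 0.333.

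The order of the crosses for HDG8 and HDG9 did not rest on replicate 2 of C24A9 X Col-0. Within replicate 1 alone, HDG8 was 4.37-fold and HDG9 2.64-fold higher in C24A9 X Col-0, and within replicate 2 alone they were 2.11-fold and 5.05-fold higher. Reads on silent loci would give about 10.6 reads to a gene of the length of HDG8, and fewer to HDG9, in that library, against 166 and 142 counted. The runs marked N held 47 reads of HDG8 and 50 of HDG9 in ColA9 X C24, against 97 and 69 in C24A9 X Col-0. HDG8 and HDG9 did not keep a fixed ratio of counts to each other, which was 0.594 and 2.80 in replicates 1 and 2 of ColA9 X C24 and 0.983 and 1.17 in C24A9 X Col-0.

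Marker genes of several tissues also differed between the crosses, and not all in 1 direction. The block fit called 4.42% of all genes as lower and 2.24% as higher in ColA9 X C24, so 1 call in a short list says little about that list. The endosperm list summed to 82.6 and 105 RPM in ColA9 X C24 and 167 and 152 in C24A9 X Col-0. Of its 6 tested genes, SUC5 was the 1 called with the block, as lower in ColA9 X C24, and the list's median log2 difference with the block was -1.24, against 0.01 for all genes. Of the 5 green tissue markers, 4 were called as lower in ColA9 X C24 with the block (median log2 -1.66), and the list summed to 944 and 482 RPM in ColA9 X C24 and 1704 and 1615 in C24A9 X Col-0. Of the 8 seed coat markers, STK was the 1 called with the block, as higher in ColA9 X C24 (log2 1.38, adjusted p = 0.0311 in edgeR), and the median was -0.31. None of the 3 tested embryo markers was called in edgeR with the block, with 0 at an unadjusted p under 0.05 and WOX8 at log2 1.64. The part of these tissues in the values of HDG8 and HDG9 was not tested.

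FWA, which is silenced by DNA methylation in vegetative tissue and delays flowering when active there, had 25.1 and 51.2 CPM in replicates 1 and 2 of ColA9 X C24 and 47.8 and 58.4 in C24A9 X Col-0. The lowest value was replicate 1 of ColA9 X C24, and the crosses overlapped. FWA differed by -0.49 ± 0.45 on the log2 scale between the crosses (adjusted p = 0.876 in edgeR) and -0.56 ± 0.29 with the block (0.311). Between the replicate numbers it differed by 0.67 ± 0.29, with an adjusted p of 0.180 in edgeR. Unlike HDG3, which spanned a 20.1-fold range over the libraries of 1 cross, FWA differed by 2.04-fold in ColA9 X C24 and 1.22-fold in C24A9 X Col-0. The 9 genes listed for control of FWA by methylation, among them MET1, which maintains methylation, and DME, which removes it in the central cell, were all tested. None was called between the crosses or between the replicate numbers in edgeR, with 1 and 3 at an unadjusted p under 0.05, and with medians of 0.12 and 0.22 on the log2 scale against -0.01 and 0.07 over all genes. These fits called 0.0% and 9.91% of all genes, so the lack of calls among 9 genes says little about them.

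**Figure D3:**
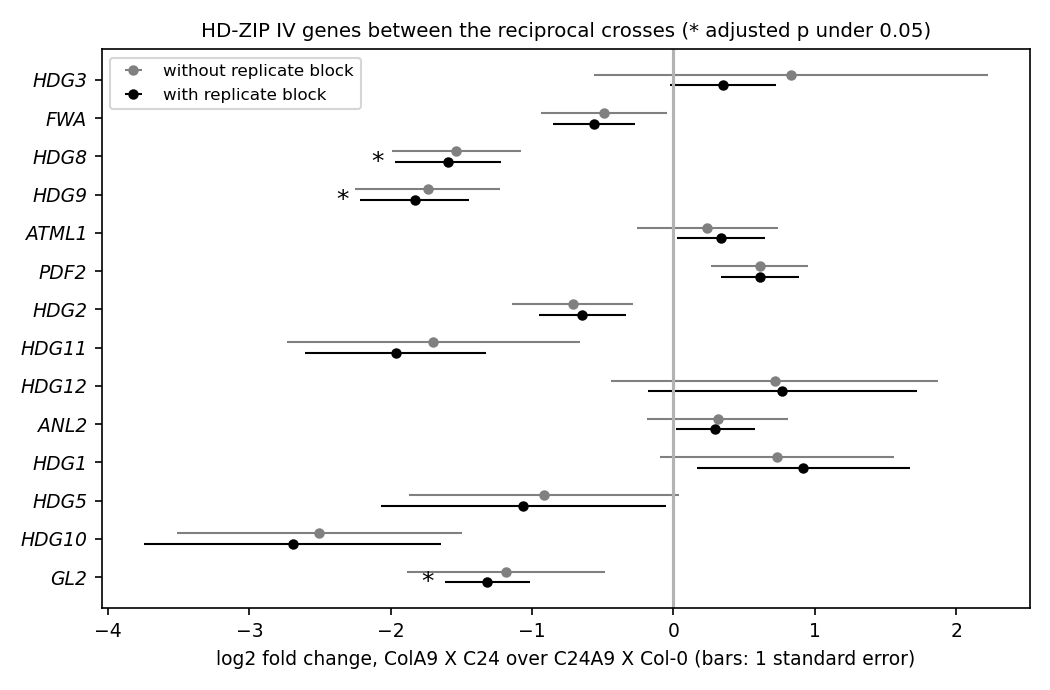
Log2 fold change between the reciprocal crosses (ColA9 X C24 over C24A9 X Col-0) for the 10 genes and 4 other HD-ZIP IV genes, with bars of 1 SE, without the replicate number (grey) and with it as a block (black). Asterisks mark an adjusted p under 0.05, reached by HDG8, HDG9 and GL2 in the block fit only.

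ATML1 and PDF2, the pair that sets epidermal identity, together held 56.9% and 41.2% of the 10 genes' reads per kilobase in replicate 1 of the 2 crosses. ATML1 had 158 and 141 CPM in replicates 1 and 2 of ColA9 X C24 and 172 and 79.2 in C24A9 X Col-0. PDF2 had 74.5 and 66.0 CPM in ColA9 X C24 and 50.7 and 40.7 in C24A9 X Col-0. ATML1 overlapped between the crosses, and PDF2 was higher in both ColA9 X C24 libraries. Neither was called. The log2 difference between the crosses was 0.24 ± 0.50 for ATML1 (adjusted p = 0.945 in edgeR) and 0.61 ± 0.34 for PDF2 (0.790), and with the block 0.33 ± 0.31 (0.615) and 0.61 ± 0.27 (0.230). Per length, ATML1 was 1.75 and 1.76 times PDF2 in replicates 1 and 2 of ColA9 X C24 and 2.81 and 1.61 times in C24A9 X Col-0.

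HDG2, which promotes stomatal development, had 41.1 and 40.7 CPM in ColA9 X C24 and 88.3 and 45.2 in C24A9 X Col-0, so both C24A9 X Col-0 libraries were higher, 1 of them by little, which did not hold in RPM. Its log2 difference between the crosses was -0.71 ± 0.43 (adjusted p = 0.813 in edgeR) and -0.64 ± 0.31 with the block (0.265). ANL2, needed for anthocyanin in the cells under the epidermis and for ordered root layers, had 54.7 and 28.0 CPM in ColA9 X C24 and 43.6 and 22.9 in C24A9 X Col-0. ANL2 was lower in both replicate 2 libraries, at 1.96-fold and 1.90-fold, with a log2 difference of -0.93 ± 0.28 and an adjusted p of 0.0514 in edgeR. With the size factors of DESeq2 in place of TMM the adjusted p of ANL2 was 0.0287.

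HDG11 and HDG12, a pair that restrains trichome branching, were the lowest of the 10. HDG11 had 4 and 22 reads in ColA9 X C24 and 21 and 77 in C24A9 X Col-0. HDG12 had 8 and 26 reads in ColA9 X C24 and 3 and 21 in C24A9 X Col-0. Both were higher in replicate 2 of either cross in CPM, although for HDG11 the values of 4.92 and 4.97 CPM in replicate 2 of ColA9 X C24 and replicate 1 of C24A9 X Col-0 were nearly equal. In replicate 2 of C24A9 X Col-0, reads on silent loci would give about 14.6 to HDG11 and 13.3 to HDG12, so that the 21 reads of HDG12 were little above that level and the 77 of HDG11 well above it. The log2 difference of replicate 2 over replicate 1 was 1.96 ± 0.64 for HDG11 (adjusted p = 0.0741 in edgeR) and 2.23 ± 0.97 for HDG12 (0.178). With the size factors of DESeq2, HDG11 had an adjusted p of 0.0483. Between the crosses HDG11 differed by -1.96 ± 0.64 with the block (0.0929) and HDG12 by 0.77 ± 0.95 (0.722). Without the block the difference of HDG11 was -1.70, and it went from -3.80 without replicate 2 of ColA9 X C24 to -0.82 without replicate 1 of that cross.

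Counted over the 10 members in CPM, both libraries of C24A9 X Col-0 lay above both of ColA9 X C24 for 4 (HDG8, HDG9, HDG2 and HDG11), where 16.7% of all tested genes did so. The reverse held for PDF2 alone, against 20.3%. Both replicate 2 libraries lay above both replicate 1 libraries for 3 (HDG3, FWA and HDG12), against 24.2%, and below them for 2 (ATML1 and ANL2), against 22.9%. These counts depend on the TMM scaling. In RPM, without it, C24A9 X Col-0 was the higher cross for 2 (HDG8 and HDG9), against 10% of all genes, and ColA9 X C24 for 3 (ATML1, PDF2 and ANL2), against 26.0%. Replicate 2 was then higher for 4 (HDG3, FWA, HDG11 and HDG12), against 42.8%, and replicate 1 for 0, against 9.23%. The median log2 change of the 10 members from replicate 1 to replicate 2 was 0.10, against 0.07 over all genes.

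**Figure D4:**
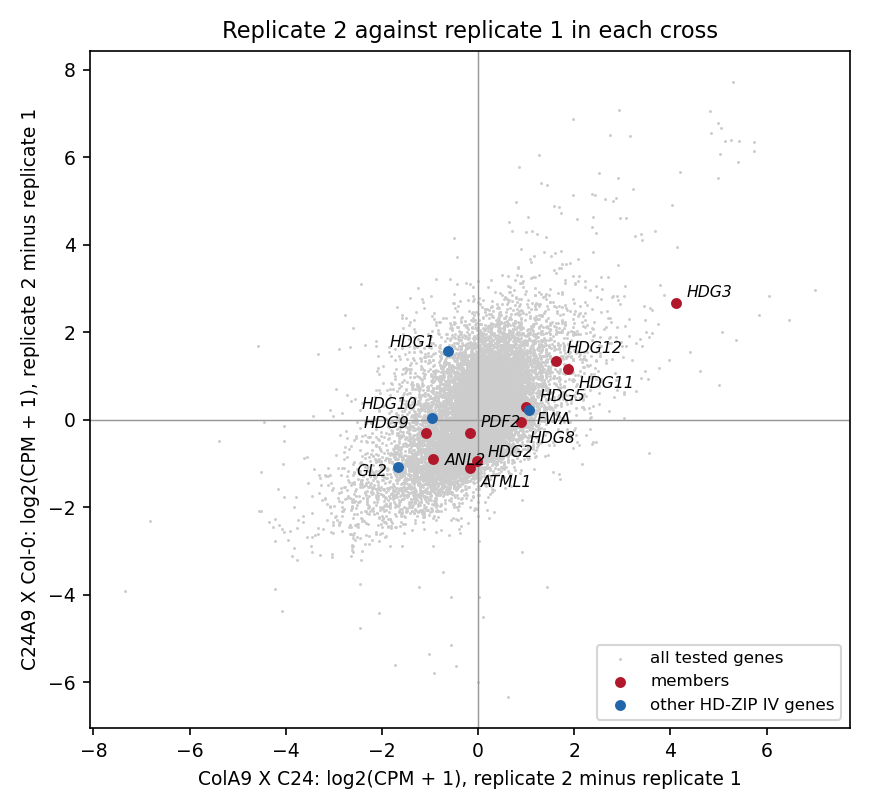
Change of log2(CPM + 1) from replicate 1 to replicate 2 in ColA9 X C24 (horizontal) and C24A9 X Col-0 (vertical) for 16779 tested genes (grey), the 10 members (red) and 4 other HD-ZIP IV genes (blue), 1 point per gene. HDG3 lies apart from its family at 4.12 and 2.66, and GL2 is the lowest of the family in ColA9 X C24 at -1.66.

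The balance within the family followed these changes. The share of the 10 genes' reads per kilobase held by the 4 imprinted members was 17.6% in replicate 1 and 47.5% in replicate 2 of ColA9 X C24, and 31.6% and 53.8% in C24A9 X Col-0. HDG3 held 1.96% and 28.9% in ColA9 X C24 and 2.21% and 17.9% in C24A9 X Col-0. With HDG3 left out, FWA, HDG8 and HDG9 held 15.9% and 26.1% of the other 9 genes' reads in ColA9 X C24 and 30.1% and 43.7% in C24A9 X Col-0. The summed share was therefore higher in replicate 2 of either cross and, within a replicate number, higher in C24A9 X Col-0, with and without HDG3. Not all imprinted members moved alike. The share of HDG9 fell from replicate 1 to replicate 2, from 4.03% to 1.26% in ColA9 X C24 and from 8.18% to 7.77% in C24A9 X Col-0. Those of HDG3, FWA and HDG8 rose in both crosses. ATML1 and PDF2 together went from 56.9% to 37.3% in ColA9 X C24 and from 41.2% to 26.7% in C24A9 X Col-0. In the runs marked N the imprinted share was 20.6% in ColA9 X C24 and 31.9% in C24A9 X Col-0. The 10 genes summed to 379 and 603 counted RPM in ColA9 X C24 and 327 and 425 in C24A9 X Col-0. These sums are without TMM scaling, and the order of those of C24A9 X Col-0 depends on it. Its factors there were 0.692 and 1.14 in replicates 1 and 2. The shares carry no test.

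**Figure D5:**
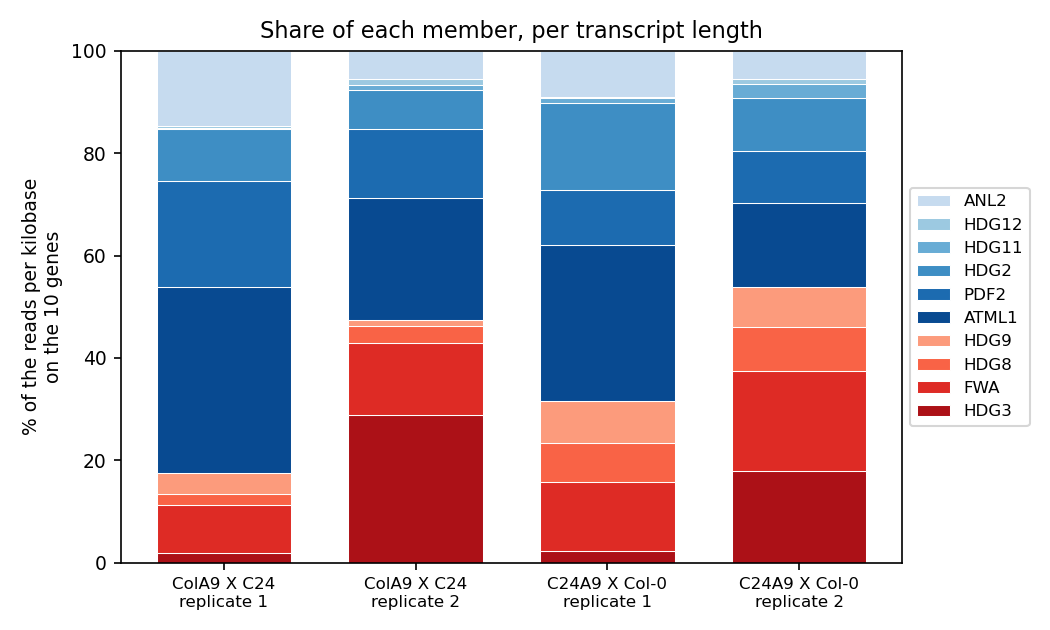
Share of each of the 10 genes in their summed reads per kilobase of transcript (%), 1 bar per library, imprinted genes in reds and epidermal genes in blues. The red part grows from 17.6% to 47.5% and from 31.6% to 53.8% between replicates 1 and 2, with HDG3 (darkest red) at 28.9% and 17.9% in the replicate 2 libraries.

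The 6 other genes of the class were read from the same fits. GL2, which shapes trichomes, root hairs and seed coat mucilage, had the highest mean of all 16 per length at 50.8 ± 33.6 RPKM (SD, n = 4), in a range that overlapped that of ATML1. In replicate 2 of ColA9 X C24, GL2 at 14.8 RPKM lay below HDG3, ATML1, FWA and PDF2. GL2 had 138 and 42.7 CPM in ColA9 X C24 and 278 and 130 in C24A9 X Col-0, lower in replicate 2 of either cross. GL2 fell by 1.37 on the log2 scale from replicate 1 to replicate 2 (SE 0.30, adjusted p = 0.0120 in edgeR), with an adjusted p of 0.502 when the cross was no term, and with the block it was lower in ColA9 X C24 by log2 -1.32 ± 0.30 (adjusted p = 0.0197 in edgeR). HDG10, the relative that shares the longest run with HDG9, had 9 and 1 reads in ColA9 X C24 and 20 and 31 in C24A9 X Col-0, with a log2 difference of -2.69 ± 1.05 in the block fit (adjusted p = 0.162 in edgeR). HDG1 had 53 and 22 reads in ColA9 X C24 and 6 and 39 in C24A9 X Col-0, and HDG5 had 5 and 12 and 12 and 22. In replicate 2 of C24A9 X Col-0, silent loci would give about 13.5 reads to HDG5. HDG4 had 0 reads in 3 libraries and 3 in replicate 2 of C24A9 X Col-0, fewer than the 9.18 that silent loci would give there. HDG7 had 8, 0, 4 and 8 reads and shared 48.7% of its windows with overlapping genes, and neither HDG4 nor HDG7 passed the filter.

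The list for epidermis and cuticle, here the cuticle list, changed more than that for signalling between endosperm and embryo epidermis. Of 20 listed genes 19 were tested, and between the replicate numbers 7 fell and 1 rose, where 6.68% of all genes fell and 3.23% rose, with a median of -1.15 on the log2 scale against 0.07 over all genes. CYP86A8, a fatty acid hydroxylase of the cutin pathway, had 79.5 and 18.3 CPM in ColA9 X C24 and 226 and 32.4 in C24A9 X Col-0, and fell by 2.46 (SE 0.31, adjusted p = 0.000423 in edgeR). The lipid transfer protein gene LTP1 fell by 2.43 (SE 0.40, adjusted p = 0.00234 in edgeR), and the acyltransferase genes GPAT8 and GPAT4 fell by 1.98 and 1.65. DCR, another acyltransferase gene of cutin formation, fell by 1.24. ABCG12, an exporter of cuticular lipids, rose by 1.17 (SE 0.29, adjusted p = 0.0238 in edgeR). PDF1 and BDG1 were the other called genes, and both fell. Of the 8 seed coat markers, TT12 alone was called between the replicate numbers. This flavonoid transporter gene fell from 467 to 131 CPM in ColA9 X C24 and from 1155 to 239 in C24A9 X Col-0. Of the 5 green tissue markers, LHCB1.3 and LHCB1.1, genes of the light-harvesting complex, were called too and fell by 3.32 and 1.89. The part of these tissues, or of the nuclease treatment of replicate 2, in the values of the cuticle list was not tested.

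Between the crosses, 0 of the 19 cuticle genes were called without the block, in a fit that called 0.0% of all genes. In that fit 1 of them had an unadjusted p under 0.05, as did 7.46% of all genes. With the block GPAT8 was higher in ColA9 X C24 (log2 1.89, adjusted p = 0.00450 in edgeR), and BDG1, GPAT4 and CYP86A8 were lower (log2 -1.14, -1.25 and -1.20). The block fit called 2.24% of all genes as higher and 4.42% as lower in ColA9 X C24. Of the 9 genes listed for signalling between endosperm and embryo epidermis, 8 were tested, with a median log2 change of 0.24 between the replicate numbers. ICE1, the partner of ZOU, and ZOU itself rose between the replicate numbers. ICE1 had 51.0 and 123 CPM in ColA9 X C24 and 23.2 and 63.8 in C24A9 X Col-0, a log2 change of 1.37 ± 0.28 (adjusted p = 0.00832 in edgeR). With the block ICE1 was also higher in ColA9 X C24 (log2 1.02 ± 0.28, adjusted p = 0.0461 in edgeR). The receptor kinase genes ACR4, ALE2 and GSO2 and the calpain gene DEK1, all needed for epidermal or cuticle formation, were not called in any of these fits, with ACR4 between 41.0 and 54.9 CPM in the 4 libraries.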

How the data were processed

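The table the authors deposited gives raw read counts for 33602 loci. It has 6 columns, of which 4 are the mRNA-seq libraries and 2 are named as replicate 1 with an added N. The sources used here do not say what the N means, and these columns served for description only. Reads had been trimmed and aligned to the cDNA of every TAIR10 gene model by the authors, and BWA and SAMtools 0.1.7 are named in the submitters' processing notes. The 5 amplicon samples were not used here. Gene models, symbols and sequences came from RefSeq (TAIR10.1), where 97.7% of the loci had a model.

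Genes with at least 10 counts in at least 2 libraries (16779) were tested with edgeR 4.0.16 in R 4.3.3 (quasi-likelihood, robust, TMM, Benjamini-Hochberg, threshold 0.05), between the crosses without further terms and between the replicate numbers with the cross as a term. CPM are TMM-scaled counts per 1000000. RPM, and the sums of gene lists given in RPM, are not TMM-scaled. The standard error is the log2 fold change over the root of its F statistic. Alternatives were the replicate block, DESeq2 1.42.0, its size factors, no filter, no cross term and each library left out. The replicate number marks the nuclease treatment in the study's methods and so pairs the libraries across crosses. The change from replicate 1 to replicate 2 had a Pearson r of 0.583 between the crosses across genes, which do not count as replicates. The block lowered the common dispersion from 0.209 to 0.0733. The block fit and the fit between the replicate numbers hold the same terms and leave 1 residual degree of freedom. The fits were also run on simulated counts. For the crosses these held no replicate effect and a lower dispersion than the data without the block, so they cannot vouch for that fit.

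The members and gene lists were chosen with earlier results of these data known. Named were all 16 genes of the class, up to 5 called genes of each list and contrast, and the 5 genes nearest to HDG3. Other genes and individual marker values were named after their values were seen.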

Additional observations from a re-analysis of the deposited data

Results flagged for a closer look

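3 genes of the family had changes of opposite sign from replicate 1 to replicate 2 in the 2 crosses, of which the second was close to 0 for HDG8 and HDG10. In log2(CPM + 1), the imprinted gene HDG8 differed by 0.89 in ColA9 X C24 and by -0.056 in C24A9 X Col-0, the latter from 27.5 to 26.4 CPM. In counted reads per 1000000, without TMM scaling, HDG8 was higher in replicate 2 of both crosses, at 6.31 and 15.8 in ColA9 X C24 and 19.0 and 30.1 in C24A9 X Col-0. HDG1 differed by -0.62 in ColA9 X C24 and by 1.57 in C24A9 X Col-0, with 53 and 22 reads in the former and 6 and 39 in the latter. HDG10 differed by -0.96 in ColA9 X C24 and by 0.048 in C24A9 X Col-0, with 9 and 1 reads and 20 and 31. In replicate 2 of C24A9 X Col-0, reads on silent loci would give about 13.1 reads to HDG1 and 9.17 to HDG10. None of these differences between the crosses was tested, since each cross has 1 library of each replicate number.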

How the results depend on the processing

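Between the crosses, 0 of 16779 genes and 0 of the 10 members were called by edgeR without the replicate number. With the replicate block 1118 genes and 2 members (HDG8 and HDG9) were called, with DESeq2's Wald test 302 genes and no member, and without a filter on low counts 585 genes and 1 member (HDG9). With 1 library left out, 0 to 46 genes and 0 to 0 members were called, the 46 without replicate 2 of ColA9 X C24. Between the replicate numbers, 1663 genes and 1 member (HDG3) were called, but 0 genes and 0 members without the cross term, and 3 members (HDG3, HDG11 and ANL2) both with the size factors of DESeq2 and without a filter. The cause of these differences was not tested. The block changed no call of a member or of another gene of the family between the crosses other than those of HDG8, HDG9 and GL2. The mean share of family reads held by HDG3, 12.7%, was 7.35% without replicate 2 of ColA9 X C24, and that of HDG11, 1.25%, was 0.70% without replicate 2 of C24A9 X Col-0. The SD of these shares over the libraries, 13.1% and 1.16%, was about as large as the means. The number of members whose libraries did not overlap changed without TMM scaling, an alternative chosen after seeing the data.

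The log2 difference of HDG3 between the crosses was 0.83, and -2.57 to 2.84 with 1 library left out, the lowest without replicate 2 of ColA9 X C24. That of ATML1 was 0.24, and -0.21 to 0.88 in the same way, the lowest without replicate 2 of C24A9 X Col-0. That of ANL2 was 0.31, and -0.25 to 0.82, with -0.25 without replicate 1 of ColA9 X C24 and -0.08 without replicate 2 of C24A9 X Col-0. That of HDG11 was -1.70, and -3.80 to -0.82. None of these was called. The rise of HDG3 between the replicate numbers was 2.81 to 4.32 with 1 library left out, where no residual degree of freedom remains and no test or count of called genes can be had. Between the crosses HDG12 has no value with a replicate 2 library left out, where it failed the filter on low counts.

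With 2 libraries per cross, 1 of them treated, effects of the nuclease, the seed pool and the cross rest on single libraries. HDG4, HDG7 and, in replicate 2 of C24A9 X Col-0, HDG5 and HDG12 were too near the level of silent loci for a difference to be read at this depth.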
